A study of Bos taurus with 2 samples.

Results

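GATA6 encodes a zinc-finger transcription factor of the GATA family, and its RNA was followed here through single nuclei of bovine (Bos taurus) blastocysts and blastoids. It is 1 of 35643 features in each deposited table, found by its symbol, which 1 row carries (identifier ENSBTAG00000005734). The gene was chosen from its values in these same libraries, so its levels are given as a description and none of them was tested. In the RefSeq table of assembly ARS-UCD2.0, GATA6 lies between the protein-coding genes RBBP8 and MIB1. Coordinates are not given, because the sources used here do not name the genome build of the deposited tables.

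The study set blastoids, blastocyst-like structures assembled in microwells from cultured stem cells, beside day-8 blastocysts, with 1 single-nucleus RNA library per group. Both sources carried the genotype label WT. Per microwell, 8 bEPSC, 8 bXEN and 16 bTSC cells were combined, lines that the series text presents as the sources of its 3 lineages, after feeder cells had been depleted on gelatin. The aggregates were kept in ACL medium with LIF at 20 ng/ml, activin A at 10 ng/ml, Chir99021 and the CEPT cocktail, and both blastoids and blastocysts were frozen before their nuclei were isolated. The number of structures pooled into either library is not in the labels. With 1 library per group there were no replicates, so every value below describes these 2 libraries, and no test between conditions was possible. All intervals are exact 95% intervals and cover counting error only.

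In mammalian embryos GATA6 is known for its part in the choice between epiblast and hypoblast (primitive endoderm), the layer that lines the blastocyst cavity. There it acts downstream of FGF signalling and in opposition to NANOG, a pluripotency factor of the epiblast. HNF4A, a nuclear receptor, is used as a hypoblast marker in cattle, and GATA2 and GATA3 are factors of the trophectoderm, the outer layer that forms the placenta. GATA6 RNA in the trophectoderm has been described for cattle and other species, so its presence there is not a sign of another lineage by itself.

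Filtering kept 1914 of 1957 blastoid barcodes and 827 of 944 blastocyst barcodes, with medians of 2009 and 7634 UMIs (unique molecular identifiers, each 1 captured RNA molecule). The libraries shared 1 barcode sequence. Nuclei were clustered within each library without GATA6, its partners or the marker genes. The blastocyst library gave a hypoblast-like cluster of 399 nuclei (9 hypoblast markers, HNF4A, GATA4 and PDGFRA among them), a trophectoderm-like cluster of 232 and an epiblast-like cluster of 74 (NANOG, SOX2, PRDM14 and LIN28B). A further 122 barcodes with a median of 1752 UMIs met the rule for trophectoderm-like through keratins, but also held HNF4A at 236 CPM and are called the shallow cluster. CPM is the gene's UMIs per 1000000 UMIs of the cluster's summed counts. The blastoid library gave a trophectoderm-like cluster of 154 nuclei (median 14620 UMIs), an unnamed cluster of 141 led by LMX1A, LDB2, NLGN1 and DCC, and 1619 ribosomal-rich barcodes with a median of 1925 UMIs. No blastoid cluster was named hypoblast-like or epiblast-like. The ribosomal-rich barcodes, whose name took precedence over any lineage, met the marker rule for 9 trophectoderm and 7 hypoblast genes. The 7 were COL4A1, AMN, APOA1, APOB, AFP, TTR and FN1.

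Summed over whole libraries, 375 GATA6 UMIs came from blastoid barcodes and 5222 from blastocyst nuclei. That was 50.1 CPM (45.2 to 55.5) against 765 CPM (745 to 787), a 15.3-fold difference (13.7 to 17.0) and 3.93 on the log2 scale (3.78 to 4.09). Among the 11937 genes whose 2 sums together reached 100 UMIs, 18.0% were at least 2-fold higher in the blastocyst library and 21.0% at least 2-fold lower. Over the 7815 genes with at least 100 UMIs in each library, the median gene stood 0.25 higher in the blastocyst on the log2 scale, and relative to it GATA6 stood 3.69 higher. GATA2 stood at 180.5 CPM in the blastoid and 171 CPM in the blastocyst library, a ratio of 0.949 (0.877 to 1.03), so the trophectoderm partner did not share the gap. The libraries differ in their cell types and in depth, and fewer nuclei with GATA6 cannot be told apart from less GATA6 per nucleus in these sums.

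Within the blastocyst, GATA6 was present in every cluster. The level was 987 CPM (954 to 1022) in the hypoblast-like cluster, from 3284 UMIs. It was 621 CPM (567 to 679) in the epiblast-like cluster, from 483 UMIs. In the trophectoderm-like cluster it was 529 CPM (499.6 to 559.9), from 1200 UMIs, and in the shallow cluster 567 CPM (499 to 641), from 255. The hypoblast-like cluster was therefore highest, 1.59 times the epiblast-like one (1.44 to 1.75) and 1.87 times the trophectoderm-like one (1.75 to 2.00). The first ratio was 2.01 (1.79 to 2.26) without 7 epiblast-like nuclei of at least 16000 UMIs, an alternative chosen after the data were seen. The second did not reach 2-fold, whereas 13.4% of genes were at least 2-fold higher in the hypoblast-like than in the trophectoderm-like cluster, HNF4A among them at 111 times (62.0 to 223). Against the trophectoderm-like cluster the epiblast-like one stood at 1.17 times (1.05 to 1.31), but at 0.930 times (0.818 to 1.05) without the 7 nuclei, where for all nuclei 11.6% of genes were at least 2-fold higher and 17.7% at least 2-fold lower.

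All 3 blastoid clusters stood below the lowest blastocyst cluster. GATA6 reached 105 CPM (92.1 to 118) in the trophectoderm-like nuclei, from 253 UMIs. It reached 24.7 CPM (18.2 to 32.9) in the unnamed cluster, from 47 UMIs, and 23.7 CPM (18.7 to 29.7) in the ribosomal-rich barcodes, from 75. The first of these was 4.23 times the second (3.09 to 5.90), while the unnamed and ribosomal-rich clusters differed by 1.04 times (0.709 to 1.52), an interval that includes 1. In the blastocyst, the epiblast-like and shallow clusters (1.10 times, 0.940 to 1.28) and the shallow and trophectoderm-like clusters (1.07 times, 0.932 to 1.23) were also within counting error of each other.

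**Figure D1:**
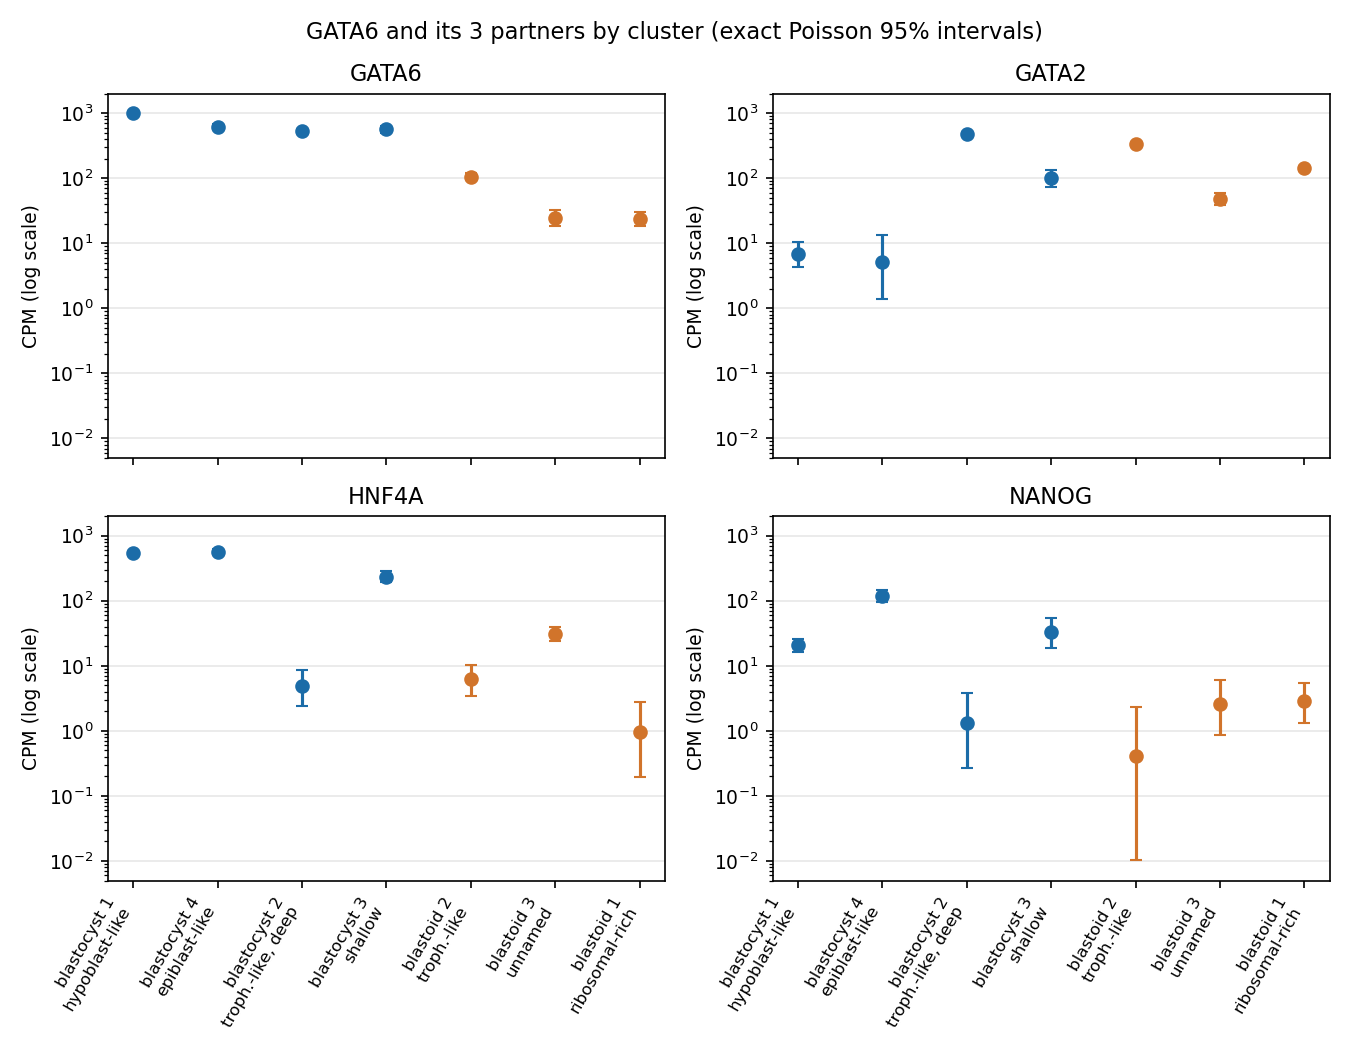
CPM of GATA6, GATA2, HNF4A and NANOG (log axis) in the 4 blastocyst clusters (blue) and 3 blastoid clusters (orange), with exact Poisson 95% intervals as bars. GATA6 lies between 529 and 987 CPM in all blastocyst clusters and at or under 105 CPM in all blastoid clusters, while each partner is low in at least 1 blastocyst cluster.

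The partners divided the blastocyst clusters where GATA6 did not. GATA2 stood at 483 CPM in the trophectoderm-like cluster, 6.91 in the hypoblast-like and 5.14 in the epiblast-like cluster. HNF4A stood at 539 CPM in the hypoblast-like, 566 in the epiblast-like and 4.85 in the trophectoderm-like cluster. NANOG was at 117 CPM in the epiblast-like, 20.7 in the hypoblast-like and 1.32 in the trophectoderm-like cluster. The epiblast-like cluster thus held HNF4A and GATA6 together with NANOG, and its name rests on 4 epiblast markers. Of these, SOX2 (41.1 against 35.2 CPM) and PRDM14 (61.7 against 57.7 CPM) stood nearly as high in the hypoblast-like cluster, where both also met the marker rule, so NANOG and LIN28B are the markers that separate the 2 clusters.

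The trophectoderm-like nuclei allowed the closest comparison of embryo and blastoid. With the shallow cluster included, blastocyst trophectoderm-like nuclei had 1455 GATA6 UMIs, 535 CPM (508 to 564), against 253 UMIs and 105 CPM in the blastoid. The log2 ratio was 2.36 (2.16 to 2.55), or 5.12-fold (4.48 to 5.87), where 11.3% of genes were at least 2-fold higher in the blastocyst and 11.6% at least 2-fold lower. Without the shallow cluster it was 2.34. In the same nuclei GATA2 was 1.25 times higher in the blastocyst (1.14 to 1.37) and GATA3 1.12 times (0.981 to 1.27), so the other trophectoderm GATA factors differed by far less than GATA6. When nuclei were instead gated by UMIs of GATA2 and GATA3 without HNF4A or NANOG, 157 blastocyst and 160 blastoid nuclei stood at 531 and 101 CPM.

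The other GATA factors give the family's layout. GATA3 followed GATA2, with 216 CPM in the blastocyst trophectoderm-like cluster, 37.6 in the hypoblast-like cluster and 175 in the blastoid trophectoderm-like cluster. GATA4, which acts with GATA6 in endoderm, was at 34.3 CPM in the hypoblast-like, 15.4 in the epiblast-like and 0.882 in the blastocyst trophectoderm-like cluster. In the unnamed blastoid cluster it was at 13.2 CPM, from 25 UMIs in 5 of 141 nuclei, 12 of them in a single nucleus. GATA1 and GATA5, factors of blood and of gut and heart, stayed at or under 6.67 CPM in every cluster.

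GATA6 was spread over most blastocyst nuclei and over few blastoid ones. In the hypoblast-like cluster 93.5% of nuclei had at least 1 GATA6 UMI, with a median of 7, quartiles of 3 and 12 and a maximum of 31. In the trophectoderm-like cluster 93.1% had one, with a median of 4 and a maximum of 23. In the epiblast-like cluster 79.7% had one, with a median of 3 and a maximum of 36, the highest count of any kept nucleus.

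In the blastoid, 64.3% of trophectoderm-like nuclei had a GATA6 UMI (median 1, maximum 9), against 15.6% of unnamed nuclei and 4.51% of ribosomal-rich barcodes. At least 20 UMIs were found in 38 blastocyst nuclei and in 0 blastoid barcodes. At least 5 UMIs were found in 414 of 827 blastocyst and 19 of 1914 blastoid barcodes, and 16 of these 19 were trophectoderm-like. These counts were not matched for depth, which was higher in the blastoid trophectoderm-like nuclei (median 14620 UMIs) than in those of the blastocyst (8735).

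**Figure D2:**
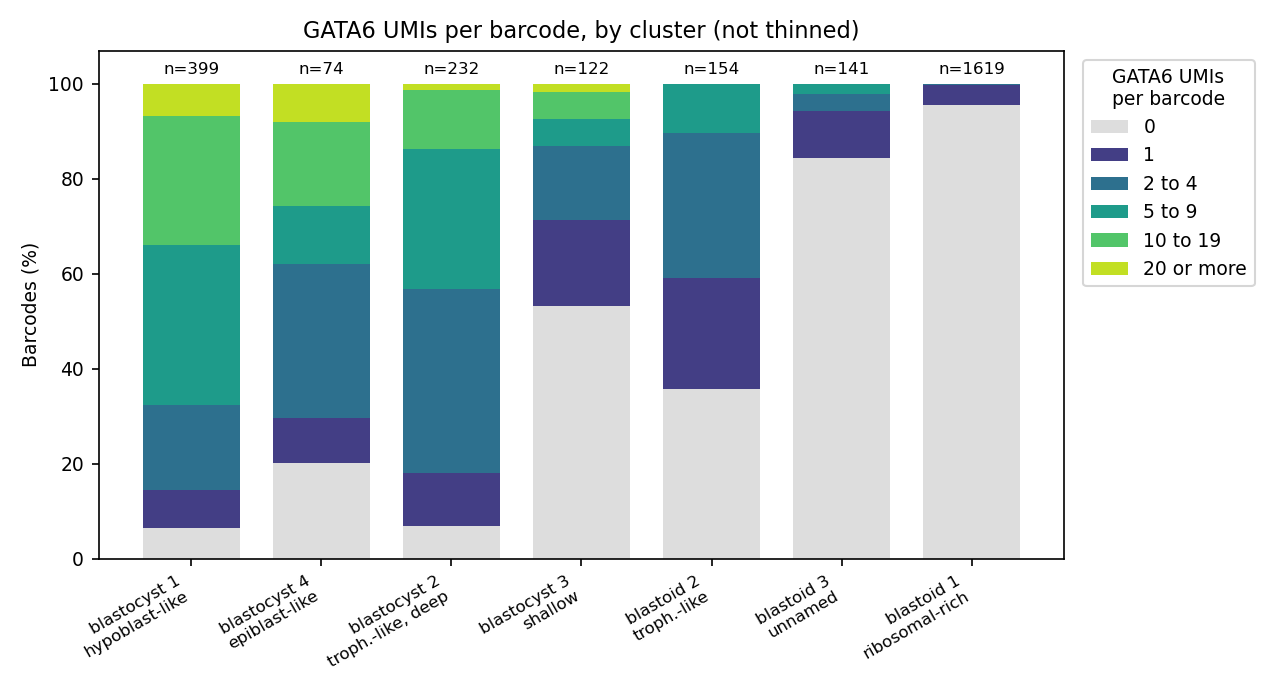
Share of barcodes (percent) with 0, 1, 2 to 4, 5 to 9, 10 to 19 and 20 or more GATA6 UMIs in each cluster, before any matching of depth, with the number of barcodes above each bar. Most hypoblast-like and trophectoderm-like blastocyst nuclei carry 2 or more UMIs, whereas the ribosomal-rich blastoid barcodes are nearly all at 0.

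To compare shares at 1 depth, each barcode was thinned to 2000 UMIs, which left out 939 blastoid and 74 blastocyst barcodes with fewer. GATA6 was then detected in 519 of 753 blastocyst nuclei, 68.9% (65.5% to 72.2%), and in 60 of 975 blastoid barcodes, 6.15% (4.73% to 7.85%). Without thinning the shares were 85.2% and 10.1%. At matched depth the gap between the libraries therefore remained.

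By cluster, the thinned share was 78.8% of 391 hypoblast-like, 60.3% of 229 trophectoderm-like, 57.6% of 59 shallow and 52.7% of 74 epiblast-like nuclei. In the blastoid it was 16.0% of 150 trophectoderm-like, 4.67% of 685 ribosomal-rich and 2.86% of 140 unnamed barcodes. No cluster is known to lack GATA6, so no background share can be given for it. The lowest share, 2.86% (0.784% to 7.15%), was that of the unnamed cluster. It comes from the blastoid library, with 50.1 CPM of GATA6 against 765 CPM, and is no background for blastocyst nuclei. For the partners, the thinned share in a cluster that should lack the gene was 1.53% for GATA2 in hypoblast-like nuclei and 0.873% for HNF4A in trophectoderm-like nuclei, in clusters with medians of 7634 and 8735 UMIs before thinning. Without thinning these shares were 4.76% and 4.74%. The GATA6 shares of all 4 blastocyst clusters were higher than those of the partners. GATA6 was also more abundant in the blastocyst library, at 765 CPM against 345 CPM for HNF4A and 171 CPM for GATA2. The partner shares are therefore no matched background for GATA6, and its own background was not tested.

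The level of GATA6 was also read by depth. Hypoblast-like nuclei of 4000 to 8000, 8000 to 16000 and at least 16000 UMIs stood at 1052, 979 and 817 CPM, and trophectoderm-like nuclei at 563, 536 and 477 CPM. The hypoblast-like intervals at 4000 to 8000 UMIs (991 to 1115) and from 16000 UMIs (713 to 931) do not overlap. Under 2000 UMIs, 8 hypoblast-like nuclei stood at 1688 CPM (1000.2 to 2667) and 3 trophectoderm-like nuclei at 215 CPM (5.44 to 1197), and at 2000 to 4000 UMIs the clusters stood at 847 and 451 CPM. The epiblast-like cluster was different, because its 7 nuclei of at least 16000 UMIs held 169 of its 483 GATA6 UMIs and stood at 1212 CPM. Without them, in an alternative chosen after the data were seen, it stood at 492 CPM (439 to 549) from 67 nuclei, below the 529 CPM of the trophectoderm-like cluster. These 7 nuclei had HNF4A at 652 CPM, PDGFRA at 272 CPM, GATA4 at 0 UMIs and NANOG at 93.2 CPM, and the part of doublets or mixed RNA in them was not tested. In the shallow cluster GATA6 stood at 287 CPM under 2000 UMIs (63 barcodes) and at 302 CPM from 2000 to 4000 UMIs (27). It stood at 668 CPM from 4000 to 8000 UMIs (20), 920 CPM from 8000 to 16000 UMIs (10) and 497 CPM above that (2). The 13 barcodes of this cluster with most GATA6 held 65.1% of its GATA6 UMIs, so its 567 CPM rests largely on few barcodes.

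RNA released from broken cells can place UMIs in nuclei that do not make a gene. GATA6 was therefore set beside markers of the other clusters, taking the ratio of GATA6 to the marker in the source cluster as fixed. HNF4A in the trophectoderm-like cluster, at 4.85 CPM, would go with at most 8.88 CPM of GATA6 if all of it came from hypoblast-like RNA of that ratio. The measured 529 CPM was 59.6 times that. For the hypoblast-like cluster, GATA2 at 6.91 CPM allowed 7.57 CPM of GATA6 from trophectoderm-like RNA, and the measured level was 130 times that. For the epiblast-like cluster, GATA2 at 5.14 CPM allowed 5.63 CPM from trophectoderm-like RNA, against the measured 621 CPM. Whether the ratio holds in released RNA was not tested.

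Other pairs of clusters gave values closer to the measured levels. In the epiblast-like cluster, GATA4 allowed 444 CPM and PDGFRA 448 CPM of hypoblast-like GATA6, and the measured 621 CPM was 1.40 and 1.39 times these. HNF4A stood at 566 CPM there against 539 CPM in the hypoblast-like cluster. By the same rule it allowed more than the 987 CPM of GATA6 in the hypoblast-like cluster, and so more than the measured 621 CPM. The bounds thus lay on both sides of the measured level, and the part of hypoblast-like RNA was not tested. In the ribosomal-rich blastoid barcodes GATA2 stood at 142 CPM, which allowed 44.2 CPM from trophectoderm-like RNA, more than the measured 23.7 CPM. That bound takes all GATA2 there as foreign. These barcodes met the marker rule for 9 trophectoderm genes, GATA2 and GATA3 not among them, and for 7 hypoblast genes. The source of their GATA6 was not tested. In the unnamed blastoid cluster, GATA2 and GATA3 allowed 14.9 and 14.5 CPM, below the measured 24.7 CPM.

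Co-detection with the partners was read in the thinned blastocyst nuclei. GATA6 was detected in 214 of 287 nuclei with HNF4A, 74.6% (69.1% to 79.5%), and in 65.5% (60.9% to 69.8%) of the 466 without. It was detected in 89 of 148 nuclei with GATA2, 60.1% (51.8% to 68.1%), and in 71.1% (67.3% to 74.7%) of the 605 without. For NANOG the shares were 23 of 35 nuclei, 65.7% (47.8% to 80.9%), and 69.1% without. More than 50% of nuclei with each partner thus had a GATA6 UMI at this depth, and the NANOG interval was wide. When 2 UMIs of GATA6 were needed, the shares were 47.4% with HNF4A, 33.1% with GATA2 and 37.1% with NANOG. All of these nuclei come from 1 library, so the shares describe the library and were not tested against each other.

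Within the named clusters, nuclei with and without the cluster's own partner had overlapping intervals. Among hypoblast-like nuclei, GATA6 was detected in 178 of 226 with HNF4A and 130 of 165 without, 78.8% in both. In trophectoderm-like nuclei it was detected in 60.9% of 138 with GATA2 and 59.3% of 91 without. Among epiblast-like nuclei it was detected in 5 of 11 with NANOG, 45.5% (16.7% to 76.6%), and in 54.0% (40.9% to 66.6%) of 63 without. In the shallow cluster the gap was wider, with GATA6 in 10 of 12 nuclei with HNF4A, 83.3% (51.6% to 97.9%), and in 24 of 47 without, 51.1% (36.1% to 65.9%). For GATA4 in hypoblast-like nuclei, GATA6 was detected in 25 of 27 with it (92.6%, 75.7% to 99.1%) and in 77.7% (73.1% to 81.9%) of 364 without. In the unnamed blastoid cluster GATA6 was detected in 2 of 5 nuclei with HNF4A, 40.0% (5.27% to 85.3%), and in 2 of 135 without, 1.48% (0.180% to 5.25%). The last intervals do not overlap, on 5 nuclei, and those of the shallow cluster and of GATA4 do.

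Counts without thinning gave higher shares. GATA6 was then found in 203 of 217 trophectoderm-like nuclei with GATA2, in 324 of 345 hypoblast-like nuclei with HNF4A and in 37 of 46 epiblast-like nuclei with NANOG. In blastoid trophectoderm-like nuclei it was found in 94 of 137 with GATA2. Over all blastocyst clusters GATA6 was found in 91 of 108 nuclei with NANOG, 84.3%, beside 85.2% of all kept nuclei.

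Taking the partners as combinations, 309 thinned blastocyst nuclei had none of the 3, and GATA6 was detected in 68.3% of them. It was detected in 75.1% of 261 nuclei with HNF4A only, 60.1% of 143 with GATA2 only and 57.1% of 14 with NANOG only. Of 21 nuclei with HNF4A and NANOG, 71.4% (47.8% to 88.7%) had GATA6. GATA2 and HNF4A, whose clusters were separate, met in 5 thinned nuclei.

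Without thinning, GATA2 and HNF4A met in 34 blastocyst nuclei with a median of 12477 UMIs against 7634 over all kept nuclei. GATA6 was present in 30 of the 34, at 665 CPM. Their median doublet score was 0.0732 against 0.0656 over all kept nuclei, and the share of doublets left among them was not tested.

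In the thinned blastoid library, GATA6 was detected in 7.69% (4.46% to 12.2%) of 208 barcodes with GATA2 only and in 5.55% (4.03% to 7.43%) of 757 with none of the 3 partners. Within clusters these shares were 16.9% and 15.7% in trophectoderm-like nuclei, 3.73% and 4.93% in ribosomal-rich barcodes, and 0 of 9 and 2 of 126 in the unnamed cluster, so the pooled order did not hold in each. HNF4A was detected in 7 barcodes, 2 of them with GATA6, and NANOG in 4. Those numbers are too small to compare.

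**Figure D3:**
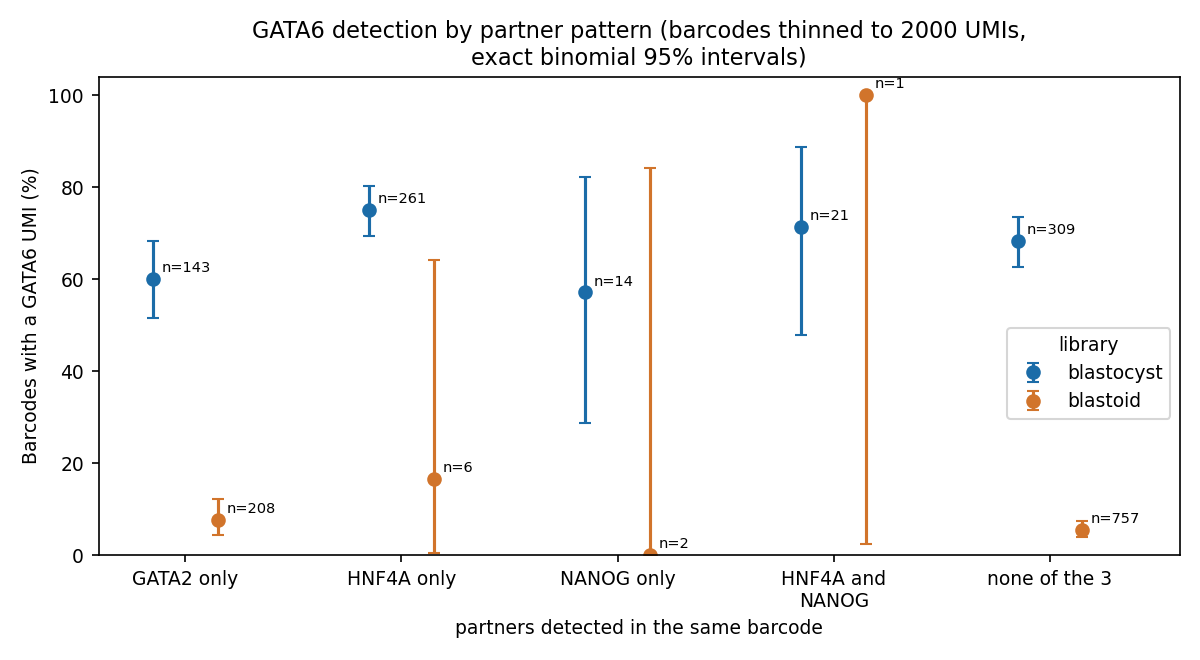
Share of barcodes with a GATA6 UMI (percent), thinned to 2000 UMIs, by which of GATA2, HNF4A and NANOG was detected in the same barcode, in the blastocyst (blue) and blastoid (orange) library, with exact binomial 95% intervals and the number of barcodes. The blastocyst points lie between 57.1% and 75.1%, and the blastoid groups of more than 10 barcodes lie at 5.55% and 7.69%.

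Few blastoid nuclei carried hypoblast factors beside GATA6. HNF4A was found in 12 kept blastoid barcodes without thinning, and 5 of these had GATA6. The nucleus with most HNF4A, 26 UMIs, had 12 UMIs of GATA4 and 4 of GATA6. The next, with 23 UMIs of HNF4A, had 5 of GATA4 and 3 of GATA6.

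Both of these nuclei lay in the unnamed cluster and had 0 UMIs of GATA2, GATA3 and PDGFRA. Of the following pair, both with 7 UMIs of HNF4A, one had GATA4 at 5 and GATA6 at 0, and the other GATA4 at 3 and GATA6 at 5. Nuclei with several hypoblast factors were thus present in the blastoid library, in single figures.

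In the unnamed blastoid cluster, 22 of 141 nuclei held its 47 GATA6 UMIs. Among these, 13 nuclei with 31 GATA6 UMIs also had GATA2 or GATA3. HNF4A or GATA4 was present in 4 nuclei with 14 GATA6 UMIs, 1 of them also among the 13. The other 6 nuclei, with 8 GATA6 UMIs, had none of the 4 partners. The 22 nuclei had a median of 16554.5 UMIs against 10924 in the cluster, and the level was 17.3 CPM in nuclei of 8000 to 16000 UMIs and 35.7 CPM above that. Most GATA6 UMIs of that cluster thus lay beside trophectoderm factors in deep nuclei, and the part of doublets was not tested.

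The genes around GATA6 were read from lists of its signal, its partners and its matrix targets. FGF receptors and their feedback inhibitors came first. Of 13 signal genes, 11 had at least 100 UMIs in the 2 libraries, and 4 were at least 2-fold higher in the blastocyst and 3 at least 2-fold lower, where 18.0% and 21.0% of all genes were. FGFR4 had 67.4 CPM in the blastocyst against 2 UMIs in the blastoid, a ratio of 252 (69.4 to 2089). SPRY2 and SPRY4, inhibitors induced by FGF signalling, were 4.64 and 9.18 times higher. FGFR1 and FGFR2 were 20.5 and 3.07 times higher in the blastoid instead. The list's median log2 ratio was 0.48, against 0.14 over the 11937 genes counted in the 2 sums together.

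Hypoblast factors followed GATA6 across the libraries as far as they could be counted. Of 9, 4 reached 100 UMIs and all 4 were at least 2-fold higher in the blastocyst, HNF4A 33.5 times (26.7 to 42.6), the receptor PDGFRA 42.5 times (30.5 to 60.9), and GATA4 3.39 times among them. Over all genes 18.0% were that much higher. SOX17, SOX7, FOXA2, FOXA1 and EOMES had too few UMIs. The median was 3.41. The blastocyst library held a hypoblast-like cluster and the blastoid library none, and over whole libraries the share of such nuclei and the level per nucleus cannot be told apart.

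Basement membrane and endocytic genes were mixed. Of 11 counted, COL4A1, COL4A2, LAMB1, NID1 and NID2, all basement membrane components, were at least 2-fold higher in the blastocyst, and SPARC and AMN at least 2-fold lower (18.0% and 21.0% over all genes). NID1 differed most, at 26.9 times (21.6 to 34.1). Among 7 counted pluripotency factors 5 were higher in the blastocyst, NANOG 13.0 times (7.68 to 23.7), and LIN28B was 2.46 times higher in the blastoid, beside the same 18.0% and 21.0% over all genes. Of 5 cofactors 2 were higher in the blastocyst, ZFPM1, which binds GATA factors, 3.31 times and the acetyltransferase EP300 2.40 times. ZFPM2, a relative of ZFPM1, was 11.3 times higher in the blastoid. The lists' medians were 0.59, 3.30 and 0.67.

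Between the hypoblast-like and trophectoderm-like blastocyst clusters, which share GATA6, the lists divided. All 4 counted hypoblast factors were at least 2-fold higher in the hypoblast-like cluster, and so were 4 of 6 signal genes (FGFR2, FGFR4, SPRY2 and SPRY4), where 13.4% of all genes were higher and 11.6% lower. SPRY2 differed by 25.5 times (14.1 to 51.6). Of 10 matrix and endocytic genes, COL4A1, COL4A2, NID1 and SPARC were higher there, while LAMA1, NID2 and the endocytic genes DAB2 and LRP2 were lower. LRP2 was 24.6 times (22.3 to 27.2) and DAB2 16.1 times (13.8 to 18.8) higher in the trophectoderm-like cluster. Some of these genes are markers that named the clusters, so the direction for those is fixed by the names.

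Between the epiblast-like and hypoblast-like clusters, 2.69% of genes were at least 2-fold higher and 2.63% at least 2-fold lower. Of the listed genes, PDGFRA (161 against 354 CPM), GATA4 (15.4 against 34.3 CPM), FGFR2, DAB2 and ZFPM1 were lower in the epiblast-like cluster. NANOG (117 against 20.7 CPM), LIN28B (247 against 80.6 CPM) and SPARC were higher. GATA6 and HNF4A were within 2-fold, with ratios of 0.629 (0.571 to 0.692) and 1.05 (0.943 to 1.16). Without the 7 nuclei of at least 16000 UMIs, GATA6 was 2.01 times higher in the hypoblast-like cluster and so just past 2-fold.

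In trophectoderm-like nuclei of the 2 libraries (shallow cluster left out), 11.4% of genes were at least 2-fold higher in the blastocyst and 13.7% at least 2-fold lower. SMAD1, a mediator of BMP signals, was higher like GATA6, at 164 against 52.5 CPM, and so were LAMB1, ESRRB and TFCP2L1. COL4A2, at 22.5 against 90.5 CPM, COL4A1, FGFR1, FGFR2 and LIN28B were lower. No hypoblast factor reached 100 UMIs in that comparison. With the shallow cluster included, HNF4A had 117 UMIs in the blastocyst and 15 in the blastoid, 43.0 against 6.20 CPM, and was 6.94 times higher (4.04 to 12.8). Of the 117 UMIs, 106 lay in the shallow cluster, and without it HNF4A stood at 4.85 CPM in the blastocyst. GATA4 had 4 and 11 UMIs with the shallow cluster included, too few to count. LAMB1, at 1.99 times, and COL4A1, 1.25 times higher in the blastoid, were then no longer past 2-fold. NID1 (5.81 times, 3.36 to 10.8) and KLF4 (10.6 times, 5.89 to 21.0) were then counted and higher in the blastocyst. Without the shallow cluster NID1 stood at 7.06 against 6.20 CPM and KLF4 at 33.1 against 4.96 CPM, both under 100 UMIs.

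GATA6 also varied among nuclei of 1 cluster. Nuclei of at least 4000 UMIs were ranked by GATA6 CPM and split into 3 equal parts, a split chosen after the data were seen. In the hypoblast-like cluster, GATA6 itself ran from 338 to 922 to 1750 CPM by construction. PDGFRA ran from 269 to 345 to 474 CPM, 1.76 times from the lowest to the highest part (1.52 to 2.05). The basement membrane gene NID1 ran from 393 to 477 to 630 CPM, 1.60 times (1.41 to 1.81). Both were lowest in the lowest and highest in the highest part.

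HNF4A differed by 1.22 times (1.08 to 1.37) over the same parts, and GATA4 by 1.06 times (0.651 to 1.71). NANOG went the other way, from 29.5 to 19.9 to 11.7 CPM, a ratio of 0.396 (0.186 to 0.790), on 32, 22 and 12 UMIs. LIN28B stood at 0.684 (0.499 to 0.933), but PRDM14, another pluripotency factor, at 2.01 (1.37 to 3.00). The pluripotency genes therefore did not share a direction.

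In the epiblast-like cluster the spread of GATA6 was wider. The lowest 25 nuclei stood at 53.3 CPM and the highest 24 at 1276 CPM. PDGFRA stood at 77.8 CPM in the lowest and 214 CPM in the highest part, 2.75 times (1.63 to 4.86), and NID1 differed by 2.24 times (1.60 to 3.20). LIN28B, an RNA-binding protein of early cells, went from 451 to 129 CPM, a ratio of 0.285 (0.193 to 0.415).

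FN1, KIT, VWF and A2M, which were looked at after their values had been seen, differed there by 2.30, 2.62, 8.85 (2.18 to 77.7) and 3.31 times, VWF on 22 against 2 UMIs. NANOG differed by 0.782 times (0.473 to 1.29), an interval that includes 1. The intervals of HNF4A, at 1.27 times (0.996 to 1.62), and COL4A2, at 1.43 times (0.988 to 2.11), also include 1. GATA4 had 4 UMIs in the lowest and 3 in the highest part. PDGFRA, NID1 and COL4A1 (1.95 times, 1.38 to 2.80) were higher in the highest part, with intervals above 1. HNF4A and COL4A2 also had ratios above 1, and GATA4 had too few UMIs to compare. Whether these genes differ from each other in their change was not tested. Whether mixed RNA or doublets share in this gradient was not tested. The highest part had a median of 11987 UMIs and the lowest 10175.

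In the trophectoderm-like cluster GATA2 differed by 1.09 times (0.939 to 1.26) between the parts and GATA3 by 1.29 times (1.04 to 1.60). COL4A1 differed by 1.98 times (1.11 to 3.66), on 36 against 19 UMIs, COL4A2 by 2.19 times (1.02 to 4.97), KIT by 2.51 times (1.34 to 4.93) and KRT18, a keratin, by 0.842 times (0.750 to 0.946). In the blastoid trophectoderm-like cluster, all 49 nuclei of the lowest part had 0 GATA6 UMIs. There GATA2 differed by 1.05 times (0.874 to 1.27), FN1 by 1.78 times (1.45 to 2.19) and COL4A2 by 0.636 times (0.439 to 0.914). COL4A1 in the blastoid (0.856 times, 0.598 to 1.22) and FN1 in the blastocyst cluster (1.16 times, 0.969 to 1.38) had intervals that include 1. Both GATA2 intervals include 1, and COL4A2 ran in opposite directions in the 2 libraries, a difference that was not tested. The unnamed blastoid cluster was not read this way, since only 22 of its nuclei held GATA6 and the ranking of the others is arbitrary.

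**Figure D4:**
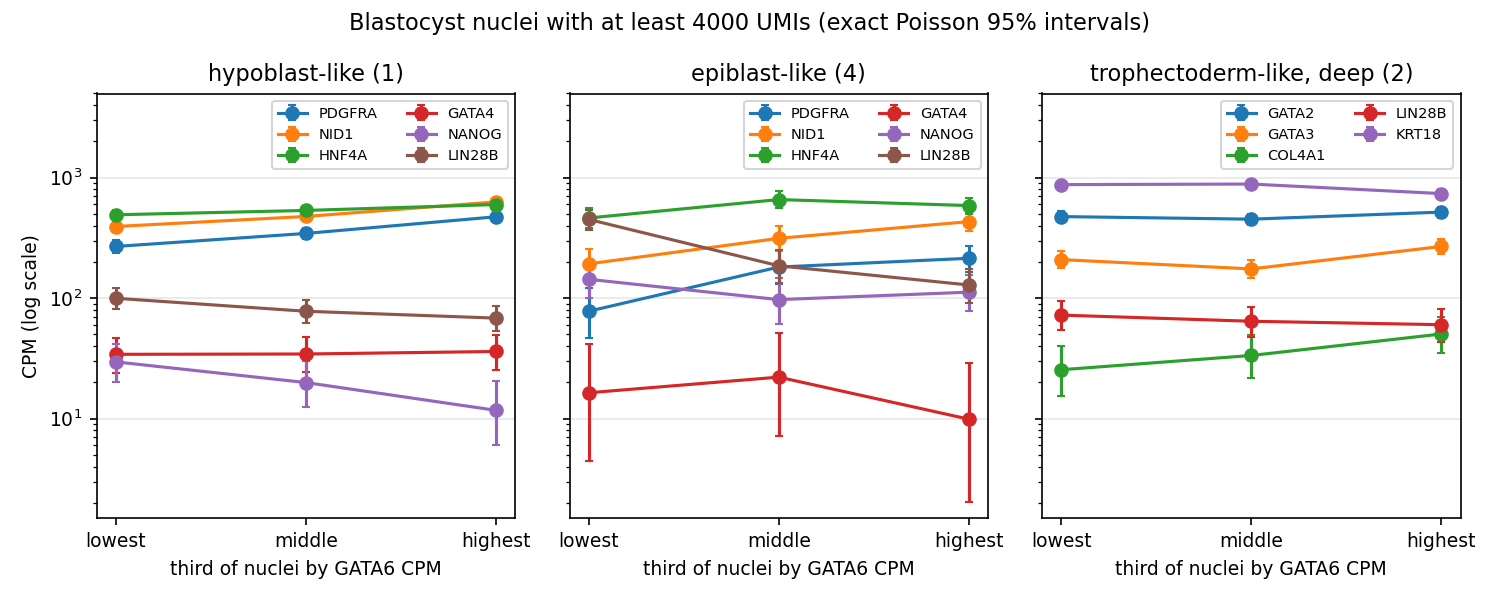
CPM (log axis) of selected genes in blastocyst nuclei of at least 4000 UMIs, split into 3 parts by their GATA6 CPM, in a panel for each of 3 clusters, with exact Poisson 95% intervals. PDGFRA and NID1 are higher in the highest than in the lowest part in the hypoblast-like and epiblast-like panels, LIN28B stands at 451 CPM in the lowest and 129 CPM in the highest part of the epiblast-like panel, and GATA2 is nearly level in the trophectoderm-like panel.

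Splitting thinned nuclei by the presence of a GATA6 UMI gave few other genes. In the trophectoderm-like cluster, 138 nuclei with and 91 without GATA6 had no gene at least 2-fold apart among 941 with at least 100 UMIs (0.0% in each direction). In the hypoblast-like cluster, 308 nuclei with and 83 without had 13 of 1906 genes at least 2-fold higher (0.682%) and 1 lower (0.0525%), a feature without a symbol. The highest named genes were MAN1A1 at 3.04 times (1.64 to 6.25), PDLIM1 at 2.45, SPRED2, an inhibitor of ERK signalling, at 2.39, KIFC1 at 2.29 and PTPN12 at 2.26. The lowest were BTBD7 at 0.552, TMEM131L at 0.573, PANK3, SUPT20H and THOC1, none of them past 2-fold. HNF4A itself stood at 0.897 (0.712 to 1.14). In the trophectoderm-like cluster the extremes were TAX1BP1 at 1.76 (1.22 to 2.57) and VTI1A at 0.604 (0.437 to 0.835), and GATA2 stood at 1.10 (0.838 to 1.44).

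The same split in smaller groups gave fewer genes to count. In the epiblast-like cluster, 39 nuclei with and 35 without GATA6 had 2 of 134 genes at least 2-fold higher (1.49%) and none lower. RALGPS2, named after its value was seen, was one of these, at 2.04 times (1.34 to 3.18). In blastoid trophectoderm-like nuclei, 24 with and 126 without GATA6 had 1 of 475 genes at least 2-fold higher (0.211%), a feature without a symbol, and 6 lower (1.26%). With the shallow cluster included, 17 of 1292 genes were at least 2-fold lower in blastocyst trophectoderm-like nuclei with GATA6 (1.32%). A single thinned UMI makes the split coarse: GATA6 was found in 78.8% of hypoblast-like nuclei after thinning and in 93.5% before.

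The genes whose counts per nucleus were most like GATA6 were ranked by Pearson r of log2(count + 1) over the 753 thinned blastocyst nuclei, which share 1 library and 1 depth. All values were low: of 6059 genes the highest was 0.278, 16 exceeded 0.2 and the median was 0.00179, so the ranking is a description and no finding. The 10 highest were JARID2 (a subunit of Polycomb complexes), FN1 (fibronectin), SLC1A3, TMEM132D, PDGFRA, HDAC8, DLGAP1, SLC4A7, TANC2 and LHFPL6. Each of them had a higher CPM in the hypoblast-like than in the trophectoderm-like cluster, as GATA6 did. The 5 lowest were KRT18 at -0.19, NEDD4L, SLC1A1, GCNT1 and PTGS2. HNF4A stood at 0.10 and GATA2 at -0.12.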

How the data were processed

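Single nuclei of 1 blastoid and 1 day-8 blastocyst library were sequenced with 10x 3' chemistry. The authors deposited raw counts of UMIs per feature and barcode as whole numbers, and the file headers name Cell Ranger 7.2.0 (the submitters' processing notes name 7.1.0 and Seurat 4.3.0). The genome build, annotation and rule for calling cells are not given in the sources used here. Feature and barcode names are the other deposited columns, per the file headers, and 0 columns of per-sample values were left unused.

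Barcodes with under 500 genes (99 blastocyst, 8 blastoid) or at least 10% mitochondrial UMIs over 13 genes (61 and 5) were dropped, some blastocyst barcodes failing both, and then those with the highest Scrublet scores, at 0.8% per 1000 barcodes (6 and 30). Kept UMIs were 6821765 in the blastocyst and 7481070 in the blastoid library. Each library was clustered with scanpy 1.11.5 and leidenalg 0.10.2 (2000 variable genes, 30 components, 15 neighbours, resolution 0.5), leaving out GATA6, its partners, the GATA family, marker and network genes. A marker counted for a cluster at 100 UMIs or more and 1.5 times the CPM of the other clusters. A name needed 3 markers and 2 times as many as any other class, and clusters with over 5% of UMIs from 69 ribosomal genes were called ribosomal-rich. POU5F1, TDGF1 and DPPA5 were not analysed here, and some further genes are not reported here.

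Levels are CPM of summed counts with exact Poisson intervals, shares have exact Clopper-Pearson intervals, and ratios have exact conditional intervals (scipy 1.17.1, numpy 2.4.6). With 1 library per group no test was run, and a gene was called past 2-fold with at least 100 UMIs in the 2 sums. Shares were compared after a random draw of 2000 UMIs per barcode. Likeness was Pearson r of log2(count + 1) over genes found in at least 5% of nuclei, and the genes named are the 10 highest and 5 lowest. Genes named in other comparisons are GATA6, its partners, the GATA family, the listed network genes and, for nuclei with against without GATA6, the 5 highest and 5 lowest ratios. GATA6 and the lists were chosen with earlier results of these data known. The split into 3 parts by GATA6, and FN1, KIT, VWF, A2M, KRT18 and PTGS2, were chosen after values were seen. The calculation of ratios was also run on simulated counts of 7737 genes, drawn for the 2 trophectoderm-like classes. Of 172 counted genes changed 4-fold, 100.0% passed 2-fold the right way, and 95.6% of true ratios lay in their interval. The draws held counting error only. They had no spread between nuclei or libraries, so they cannot show how far the ratios hold beyond these 2 libraries.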

Additional observations from a re-analysis of the deposited data

Results flagged for a closer look

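Barcodes outside the comparisons held GATA6 UMIs too. The 6 blastocyst barcodes removed as doublets held 113 GATA6 UMIs, 1119 CPM (922 to 1345), a level above that of the kept library. The 99 blastocyst barcodes with under 500 genes held 10 GATA6 UMIs, 119 CPM (57.1 to 219). The 61 blastocyst barcodes with at least 10% mitochondrial UMIs held 6, or 81.1 CPM (29.8 to 177). Some barcodes failed both of these filters, so the 2 counts overlap. Each was singled out because it is signal in barcodes left out of the report's comparisons. In the blastoid library the 30 removed doublets held 3 GATA6 UMIs, 38.8 CPM, and the 8 and 5 barcodes removed by the other filters held 0.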

How the results depend on the processing

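The whole-library log2 ratio of GATA6 was 3.93 and kept its direction in every alternative run; it moved to 3.47 with barcodes of at least 4000 UMIs and to 3.69 when scaled by the median gene, and the other 4 alternatives gave 3.82 to 3.95. The trophectoderm-like ratio, 2.36, stayed between 2.31 and 2.40 in all 12 alternatives. Not all of these are separate checks. A marker fold of 2 and no ribosomal limit returned the main value and interval unchanged. Resolution 1.0 gave the same value and interval as leaving out the shallow cluster. Shares moved with depth by construction. GATA6 in blastocyst nuclei with HNF4A was 57.1% at 1000 UMIs, 87.5% at 4000, 91.0% without thinning and 47.4% when 2 UMIs were needed. With GATA2 these values were 37.9%, 84.3%, 89.2% and 33.1%, and with NANOG 47.4%, 81.0%, 84.3% and 37.1%. The blastoid share was 3.35%, 20.6%, 10.1% and 0.513%, and 11.1% in barcodes of at least 4000 UMIs. Added after the data were seen, leaving out the 7 deepest epiblast-like nuclei gave that cluster 492 CPM, moved the hypoblast-like over epiblast-like ratio from 1.59 to 2.01 and turned the epiblast-like over trophectoderm-like ratio from 1.17 to 0.930. Leaving out the shallow cluster, also added then, gave the trophectoderm-like ratio 2.34. No paired analysis was possible because each group had 1 library, which also left no replicate to leave out. Depth limits the share for NANOG, which rests on 35 thinned blastocyst nuclei.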
